A study of Mus musculus with 111 samples.

Results

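The comparison described here is that of the wild-type H3.3 virus with the GFP virus at ZT20, and it rests on 11 of the 111 RNA-seq libraries of the series. It takes in every library that the labels place at ZT20 with one of those vectors, 6 with H3.3 and 5 with GFP. All 11 come from C57BL/6 mice (C57BL/6J in the study's methods) whose tuberomammillary nucleus (TMN) was injected on both sides with an adeno-associated virus, either the empty vector that expresses GFP or a vector that carries wild-type histone H3.3 with a Flag-HA tag and GFP. The mice were young adults of both sexes, the tissue was cut out under GFP fluorescence some weeks after injection, 1 library was made per animal, and ZT20 falls in the dark, active phase. The 5 GFP libraries and 4 of the H3.3 libraries belong to cohort 1, and the other 2 H3.3 libraries to cohort 2, so that cohort cannot be told apart from virus for those 2. Cells that took up no virus are part of each piece of tissue, and the promoter of the vectors is not given in the sources used here.

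H3.3 is the histone H3 variant that is laid down outside DNA replication, and in neurons, which no longer divide, it gradually takes the place of the canonical forms. It is encoded by H3f3a and H3f3b, whose proteins are the same, and is placed into chromatin by the HIRA complex and by ATRX with DAXX. Glutamine 5 of its tail, beside the lysine 4 that carries promoter methylation, can be joined to monoamines. The wild-type vector keeps that glutamine and serves in the study as the control for the histone added with the mutant Q5A, so that H3.3 against GFP asks what extra H3.3 by itself does to expression in this nucleus.

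The first 30 coding bases of both mouse genes are shown because the codon that the study's vectors differ in lies there. They were read from the GENCODE vM21 transcripts (GRCm38), 5′ to 3′, with the codon of glutamine 5 in capitals, counted without the initiator methionine.
H3f3a: atggctcgtacaaagCAGactgcccgcaaa
H3f3b: atggcccgaaccaagCAGaccgctaggaag
The glutamine codon is the same in both, and 22 of the 30 bases are identical. The 2 genes have a row each in the counts.

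How the reads were counted bears on every value. The counting took the first read to lie on the strand of the gene, whereas with this kit the first read lies on the other strand. Of the 28499 rows that matched the annotation, 19.9% have an exon that overlaps a gene on the opposite strand, and those rows held 78.1% of the matched reads over the 11 libraries. Only 3.59% to 4.82% of the gene-row, no-feature and ambiguous reads of a library fell in gene rows, and a library had 979664 to 1807214 gene-row reads. A row is therefore called here by its gene's name, and for rows with a gene opposite that gene is named beside it. Under this setting reads of a gene would mostly fall in the row opposite it, where there is one. No recount with the other setting was made. Hdc, histidine decarboxylase, which defines histaminergic neurons of this nucleus, had 0 to 9 reads per library, too few to check the tissue label. Fewer cells of a type and less RNA per cell cannot be told apart in such tissue.

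The H3.3 genes themselves gave little on these rows. H3f3b (chromosome 11, 116021912 to 116027962, minus strand) had 8.66, 19.0, 26.5, 23.6 and 33.6 normalised counts in the GFP libraries, and in the H3.3 libraries between 19.0 and 47.7 with a median of 25.3. A normalised count is the read count of a library scaled to the mean effective library size of the 11. The groups overlapped, and the log2 difference, always given as H3.3 minus GFP, was 0.35 ± 0.30 (standard error; edgeR quasi-likelihood test, Benjamini-Hochberg adjusted p = 0.554, n = 6 and 5). Its sign was not kept in every alternative tried. H3f3a (chromosome 1, 180800832 to 180813943, minus strand), opposite Gm17275 and H3f3aos, had 2 to 11 reads per library and was below the filter on low counts. The Gm17275 row had a mean of 172 ± 45.7 normalised counts in GFP and 209 ± 94.0 in H3.3 (SD). Its log2 difference was 0.29 ± 0.27 (edgeR adjusted p = 0.587). Under the strand setting given above, H3.3 transcripts would mostly not be counted to the H3f3a and H3f3b rows. These rows thus cannot show whether the histone was added, and the vector was not counted as a row of its own. The Gm17275 row could hold such reads only where it overlaps H3f3a.

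Over all rows, 9323 passed the filter and were tested. None was past an adjusted p (Benjamini-Hochberg) of 0.01, the threshold of the study's own comparison of these viruses, or of 0.05, which is 0% called, and the smallest adjusted p was 0.0625. The study, which used DESeq2, reported 1 gene past 0.01 at ZT20 and its largest number at ZT12. At an unadjusted p under 0.05 there were 1247 rows, or 13.4% of those tested, 788 higher in H3.3 (8.45%) and 459 lower (4.92%). DESeq2 placed 1 row past 0.01 and 7 past 0.05, of 6562 rows with an adjusted p (0.0152% and 0.107%). These 7 were RP23-386A17.6, RP23-422H17.5, Pde6h, Kcna6, RP23-25M3.6 and RP24-325H17.1, all lower in H3.3, and Bc1, which was higher. In simulated counts with 200 rows changed, 8871 rows passed the filter. At an adjusted p of 0.01 the same test recovered 77.3% of 66 4-fold, 20.9% of 67 2-fold and 1.49% of 67 1.5-fold changes. Of these 57, 58 and 60 passed the filter, and the rest count as not recovered. A 2-fold difference would thus mostly have gone uncalled.

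The differences were small and the higher and lower rows were unlike each other. The quartiles over all tested rows were -0.23 and 0.36 on the log2 scale, 93 rows lay above 1 and 31 below -1. The 788 rows higher in H3.3 differed by a median of 1.70-fold and at most 2.97-fold, and had a median level of 27.7 normalised counts. Those lower in H3.3 differed by a median of 1.5-fold, at most 6.10-fold, and had a median level of 91.1. The higher side thus held more rows, of lower level.

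The kind of row went with the direction. Among the higher rows, 549 of 788 (69.7%) were annotated rows with no gene opposite, against 48 of the 459 lower rows (10.5%) and 41.7% of all rows tested. Of the lower rows, 190 had a gene opposite and 221 (48.1%) carry names, mostly of genomic clones, that did not match the annotation. The median log2 difference was 0.29 in the 3892 rows with no gene opposite, -0.08 in the 3419 rows with one and -0.23 in the 2012 unmatched rows. Protein-coding rows counted 736 higher and 202 lower of 6909, while rows annotated as antisense counted 1 higher and 22 lower of 125, lincRNA rows 1 and 8 of 131, and miRNA rows 0 and 4 of 44. Level moved the same way, from 254 higher and 51 lower of 2915 rows under 20 normalised counts to 1 higher and 26 lower of the 210 most abundant rows.

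**Figure D1:**
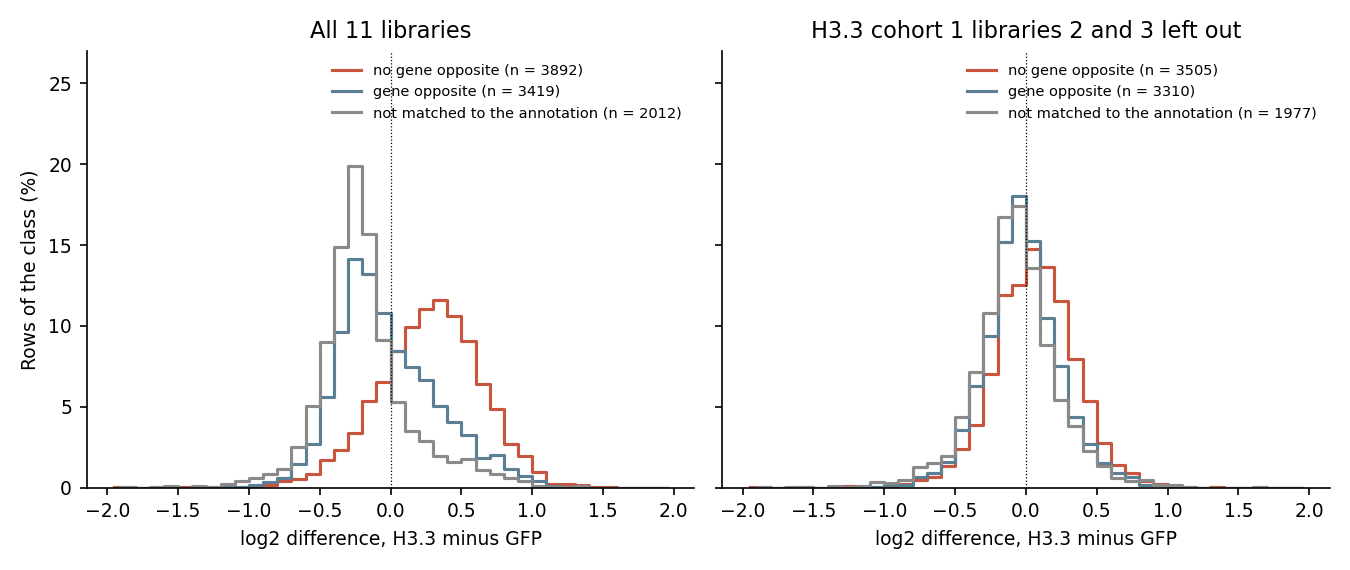
Distribution of the log2 difference between H3.3 and GFP at ZT20 (x axis; values beyond the axis are placed in the end bins) as the percent of the rows of each class (y axis), for all 11 libraries and with H3.3 cohort 1 libraries 2 and 3 left out. With all libraries the rows with no gene opposite are centred at 0.29 and the unmatched rows at -0.23, and without those 2 libraries the 3 classes lie close to 0.

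Cohort 1 libraries 2 and 3 of H3.3 stood apart in just this property. Rows with no gene opposite took 22.2% and 22.0% of their gene-row reads, against 8.83% to 15.6% in the 5 GFP libraries and 10.4% to 14.2% in the other H3.3 libraries. They also had the most reads in gene rows, 4.73% and 4.82%, where no other library was above 4.22%, and they lay at -55.8 and -56.2 on the first principal component (40.2% of the variance) with the rest between -12.4 and 40.9. The first GFP library lay at the other end, with 8.83% and 3.59%. Between the groups the share of reads in gene rows was 4.27% ± 0.413 in H3.3 and 3.88% ± 0.209 in GFP (SD), a difference of 0.381 percentage points (exact permutation test, two-sided, p = 0.0996, 0.299 adjusted over 3 measures). In the same exact permutation test p was 0.212 for the total count and 0.957 for the share held by the 10 highest rows.

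**Figure D2:**
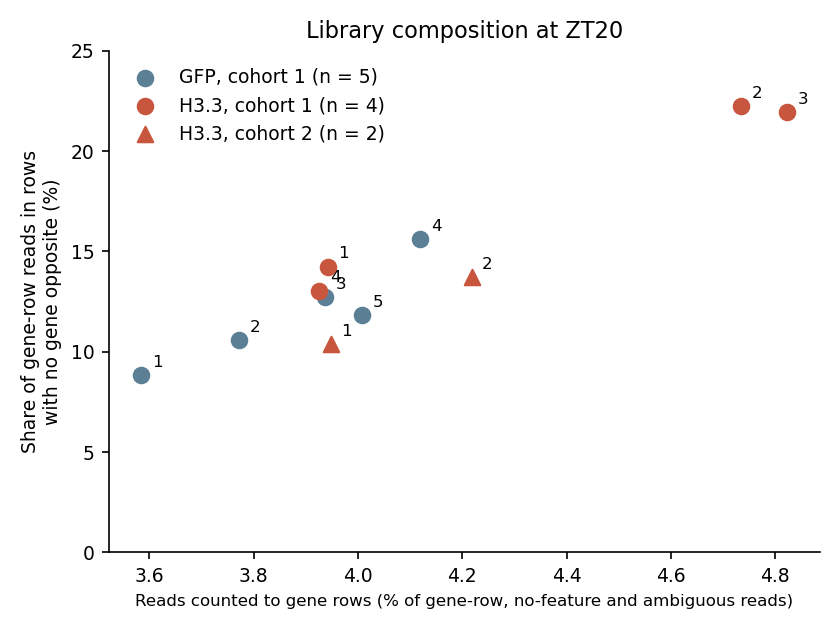
Share of gene-row reads that fell in annotated rows with no gene opposite (y axis, %) against the share of all gene-row, no-feature and ambiguous reads that fell in gene rows (x axis, %), 1 point per ZT20 library, labelled with its replicate number. H3.3 cohort 1 libraries 2 and 3 lie at 22.2% and 22.0%, above the 8.83% to 15.6% of the other 9.

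What changes without them was looked at by leaving both out. The rows at an unadjusted p under 0.05 then numbered 150 higher (1.71% of 8792) and 196 lower (2.23%), and the medians of the 3 classes became 0.06, -0.03 and -0.07. Of the 788 higher rows 97 were past that p in this fit, and of the 459 lower rows 161, counted without regard to sign. That fit has fewer H3.3 libraries, and those of cohort 2, which holds no GFP library at ZT20, weigh more in it. The part of these 2 libraries in the fall cannot be told apart from that of cohort or number. In cohort 1 alone, which keeps them, 1503 rows (15.7%) were higher and 1031 (10.8%) lower. A fit with all 11 libraries and the share of reads in gene rows as a covariate gave 140 higher (1.5%) and 171 lower (1.83%). In both fits 0 rows passed an adjusted p of 0.05 by edgeR. In 611 of the 788 higher rows (77.5%) those 2 libraries were the 2 highest of the 11, as they were in 24.4% of all rows tested. The direction of the split also turned on the scaling. With TMM factors taken only from rows with a gene opposite 78.7% of the rows at that p were higher in H3.3, and with factors taken only from annotated rows without one 19.4% were, against 63.2% in the fit reported. The median over all rows was 0.15 and -0.22 under these scalings and 0.03 in the fit reported.

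The rows that stood highest in H3.3 were led by Zfr, Bc1, Ktn1, Slc1a3 and Zfp365, and their adjusted p was 0.314 throughout. Bc1 (chromosome 7, 144914470 to 144914637, plus strand) is a short noncoding RNA of neurons, made by RNA polymerase III and carried into dendrites, where it restrains translation. It had 67.8, 108.1, 361, 484 and 330.4 normalised counts in the GFP libraries and 489 to 1160 with a median of 758 in the H3.3 libraries. All 6 H3.3 libraries lay above all 5 GFP libraries, which only 0.397% of the tested rows did. The log2 difference was 1.5 ± 0.35, or 2.83-fold (edgeR adjusted p = 0.314, DESeq2 adjusted p = 0.0472), 1.32 without the 2 H3.3 libraries and 1.18 with the share as covariate. The GFP libraries themselves were far apart, with the first and second well below the other 3. The transcript is shown because its row was the only one higher in H3.3 that DESeq2 called. It is given 5′ to 3′ from GENCODE vM21 (GRCm38) with runs of at least 8 adenines in capitals, and 41.7% of its 168 bases are adenine.
Bc1: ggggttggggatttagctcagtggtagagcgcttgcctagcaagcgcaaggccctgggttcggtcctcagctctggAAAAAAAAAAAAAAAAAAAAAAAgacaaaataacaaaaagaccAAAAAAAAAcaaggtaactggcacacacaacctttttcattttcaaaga

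Zfr, which encodes a zinc finger RNA-binding protein (chromosome 15, 12117831 to 12185683, plus strand), had 21.4 to 45.3 normalised counts in GFP and 44.3 to 98.8 with a median of 54.0 in H3.3. Its log2 difference was 1.14 ± 0.27 and only the fourth GFP library reached into the H3.3 range. Slc1a3, the glial glutamate transporter GLAST (chromosome 15, 8634124 to 8710764, minus strand), had 27.4, 35.6, 73.2, 76.8 and 61.3 in GFP and 68.2 to 212 with a median of 129 in H3.3. The groups overlapped, and it differed by 1.26 ± 0.30 on the log2 scale and by 0.89 ± 0.29 without the 2 libraries. Pdha1, a subunit of pyruvate dehydrogenase (opposite Map3k15; chromosome X, 160122209 to 160138413, minus strand), was with Bc1 the only one of these 12 rows without overlap, at 25.5 to 46.3 in GFP against 49.1 to 83.7 in H3.3 (log2 difference 0.87 ± 0.23).

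The other rows of the 12 smallest p on this side were Ktn1, Zfp365, Sucla2, Selt, Snx32, Gtf2i, Ogt and Calb1. They include Sucla2, a succinyl-CoA ligase subunit of mitochondria, Ogt, the enzyme that adds O-linked N-acetylglucosamine to proteins, and Calb1, the calcium buffer calbindin. The 12 differed by 1.83- to 2.83-fold, 9 of them have no gene opposite, and the 2 libraries that stood apart were the 2 highest in 11. Without those libraries 11 were tested, and all 11 kept an unadjusted p under 0.05, with log2 differences of 0.71 to 1.32. The median was 1.27 over the 12, 0.86 over those 11 in that fit, and 0.74 over the 12 with the share as covariate. RP23-81C12.3, the one further row named for its size (2.56-fold), went from 1.36 to 0.48 and was no longer past that p, and 1 H3.3 library, cohort 1 number 3, held 788 normalised counts of it.

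On the lower side the row of smallest p was RP23-386A17.6, a clone-named row with no position in the annotation used. It had 73.6, 153, 106.1, 100.4 and 84.1 normalised counts in the GFP libraries and 29 to 56.4 with a median of 39.3 in the H3.3 libraries, with no overlap. The log2 difference was -1.34 ± 0.23, or 2.54-fold (edgeR adjusted p = 0.0625, DESeq2 adjusted p = 8.79e-05). It was -1.29 both without the 2 H3.3 libraries and with the share as covariate. The edgeR call depended on the libraries, with an adjusted p of 0.0317 in cohort 1 alone and 0.0280 with cohort as a covariate, and from 0.0120 without the first cohort 2 library of H3.3 to 0.512 without GFP library 2. Lower in every H3.3 library than in any GFP library were 0.483% of the rows tested, and 4 of the 12 rows of smallest p on this side, the others being RP23-422H17.5 (6.68 to 22.6 against 24.0 to 59.4), Pde6h and Il16.

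Kcna6, a voltage-gated potassium channel of the Kv1 family (opposite Gm26673; chromosome 6, 126708329 to 126740674, minus strand), had 160.2, 248.3, 140.1, 203 and 166 normalised counts in GFP and 45.9 to 146 with a median of 78.7 in H3.3. Only the first cohort 1 library of H3.3 reached into the GFP range. The log2 difference was -1.13 ± 0.25 (DESeq2 adjusted p = 0.0109) and -1.21 without the 2 libraries. Pde6h, annotated as a subunit of the cone phosphodiesterase, overlaps Arhgdib on the other strand (chromosome 6, 136923832 to 136968865, plus strand). Its row had 80.5 to 190.1 normalised counts in GFP against 39.3 to 78.6 in H3.3 (log2 difference -1.07 ± 0.23, DESeq2 adjusted p = 0.0109). Kcnab3os, opposite Kcnab3, the gene of a Kv channel beta subunit, went the same way (182.6 to 563 against 73.1 to 218; -1.16 ± 0.28), as did Il16, a leukocyte cytokine (opposite Stard5 and 2310044K18Rik), at 22.6 to 54.1 against 13.4 to 22.0 (-1.03 ± 0.26).

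RP24-325H17.1 was the most abundant of the 12 lower rows of smallest p, with 601 to 1976 normalised counts in GFP and 363 to 846 in H3.3 (-1.08 ± 0.25, DESeq2 adjusted p = 0.0368), so that the groups overlapped. RP23-25M3.6, the last that DESeq2 called, had 114 to 223 in GFP and 56.1 to 126 in H3.3 (-1.01 ± 0.23). Of the 12 lower rows 1 has no gene opposite, 5 have one and 6 did not match. All 12 kept an unadjusted p under 0.05 both without the 2 H3.3 libraries and with the share as covariate, and their median moved from -1.12 to -1.07 and -0.98. Pla2g3 (opposite Inpp5j), named for its size, had 183 normalised counts in the first GFP library and 29.7 to 53.5 in the others, and it was no longer past an unadjusted p of 0.05 without that library.

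**Figure D3:**
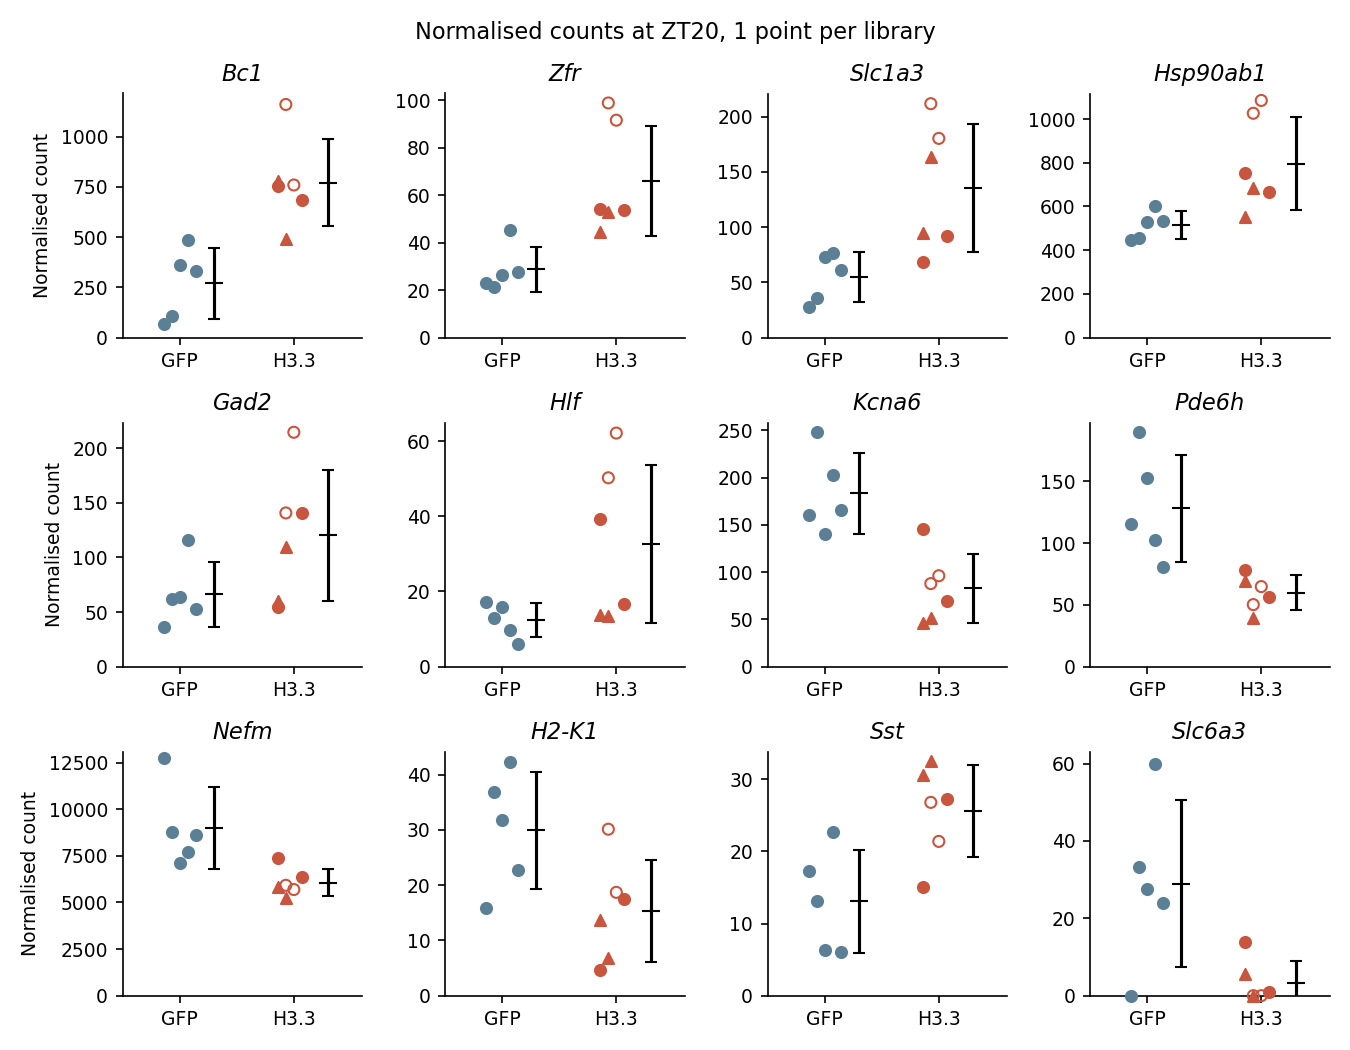
Normalised counts (y axis, from 0) of 12 rows at ZT20, 1 point per library with the mean and SD beside each group (circles, cohort 1; triangles, cohort 2; open circles, H3.3 cohort 1 libraries 2 and 3). The open circles are the 2 highest points for Zfr and Hsp90ab1, whereas for Kcna6, Pde6h and Nefm they lie among the other H3.3 libraries.

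Slc6a3, the dopamine transporter (chromosome 13, 73536747 to 73578672, plus strand), showed the largest difference of all rows tested, 6.10-fold lower in H3.3. It had 0, 33.3, 27.6, 60.0 and 24.0 normalised counts in the GFP libraries and 13.9, 0, 0, 0.879, 5.64 and 0 in the H3.3 libraries (log2 difference -2.61 ± 0.62, edgeR adjusted p = 0.314). Other genes of dopamine neurons were looked at after these values were seen. En1 was at 0, 13.1, 7.43, 16.7 and 4.81 in GFP, and in H3.3 at 2.31 in 1 library and at 0 in 5. Th, the first enzyme of dopamine synthesis, had 14.9 to 27.6 in 4 GFP libraries, 0 in the first, and 3.35 to 14.9 in H3.3. Th overlaps between the groups, and the row of Slc6a3 is at 0 in GFP library 1 as well, the library that lies apart on the second principal component. The part of such cells in the result was not tested.

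Genes for GABA and glutamate transmission were the list with the most rows on the higher side. Of 30 tested rows 10 were higher at an unadjusted p under 0.05 and 0 lower, beside 8.45% higher of all rows and 14.1% of the rows with no gene opposite, which 21 of the 30 are. The median log2 difference was 0.50 beside 0.03 over all rows, and the smallest adjusted p was 0.333. Gad2, one of the enzymes that make GABA, had 36.1, 61.8, 63.7, 116.1 and 52.9 normalised counts in GFP and 54.3 to 214 with a median of 125 in H3.3 (log2 difference 0.84 ± 0.32). Gabrb2, a GABA-A receptor subunit, differed by 1.23 ± 0.41, and Grm5, a metabotropic glutamate receptor, by 0.72 ± 0.27. Without the 2 libraries the list counted 0 of 29 rows higher, its median was 0.12, and Gad2 and Gabrb2 came to 0.45 and 0.39, neither past that p. In cohort 1 alone, where 15.7% of all rows were higher and 10.8% lower, the list counted 20 of 30 higher with a median of 0.66.

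The heat shock list, made up of chaperones and their partners, counted 8 of 15 rows higher and 0 lower, with a median of 0.59, beside 8.45% of all rows and the 14.1% of rows with no gene opposite, which 11 of the 15 are. Hsp90ab1, the constitutive cytosolic Hsp90, had 449, 455, 530, 604 and 535 normalised counts in GFP and 553 to 1085 with a median of 719 in H3.3. All H3.3 libraries but the first of cohort 2 lay above the GFP range, and the log2 difference was 0.63 ± 0.19 (edgeR adjusted p = 0.333). Hspa5, the chaperone BiP of the endoplasmic reticulum, differed by 0.96 ± 0.29 and Hspa8, the constitutive Hsc70, by 0.84 ± 0.27. Hsp90ab1 alone stayed past an unadjusted p of 0.05 without the 2 libraries, at 0.38 ± 0.16, where the list median was 0.22. Hspa1a (opposite Gm20481) and Hspa1b, which encode inducible Hsp70, were below the filter.

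Synaptic vesicle genes (6 of 26 higher, median 0.34), potassium and sodium channels and pumps (6 of 32, 0.30), nuclear genes of oxidative phosphorylation (8 of 56, 0.39) and astrocyte markers (3 of 14, 0.43) had 0 rows lower. The share higher was 8.45% of all rows and 14.1% of those with no gene opposite, which most rows of these 4 lists are, and the oxidative phosphorylation count is near the latter. Syt1 and Syt4 (opposite Gm26658), calcium sensors of vesicle release, differed by 0.91 ± 0.31 and 1.06 ± 0.33. Atp5a1 (opposite Haus1), the alpha subunit of ATP synthase, differed by 0.72 ± 0.25. Without the 2 libraries the first 3 of these lists had 0 rows past that p and the astrocyte list had 1, Slc1a3, and every one of the 4 medians was at or below 0.12. Ribosomal protein genes counted 6 higher and 2 lower of 39 (0.25), beside 8.45% and 4.92% of all rows. Rpl15, opposite Nkiras1, was among the lower rows at 286 to 375 in GFP and 184 to 285 in H3.3. Under the scaling by rows with no gene opposite, the medians of the vesicle, channel, oxidative phosphorylation and ribosomal lists were 0.04, -0.05, 0.10 and 0.01.

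The clock list had 2 of 14 rows higher and 0 lower, a count near the 8.45% of all rows. Hlf, a PAR bZIP factor and clock output, had 6.01 to 17.3 normalised counts in GFP and 13.5 to 62.1 with a median of 28 in H3.3 (1.29 ± 0.39). Bhlhe40, a repressor of clock target genes (opposite 0610040F04Rik), had 4.81 to 14.3 in GFP and 14.5 to 28.9 in H3.3, so that the groups did not overlap (0.88 ± 0.31). Of the 14 rows 12 lay above 0, and the list ran from -0.05 (Bhlhe41, opposite Gm43909) to the 1.29 of Hlf. Rora (opposite Gm15511) was at 0.82 ± 0.62. Clock, Per1, Cry2 (opposite D930015M05Rik) and Dbp (opposite Sphk2) lay between 0.02 and 0.21, and Clock and Cry2 below 0 without the 2 libraries. The more abundant Sphk2 row, which also lies opposite Rpl18, was at -0.41 ± 0.25, and at -0.24 without those libraries. Without the 2 libraries Hlf and Bhlhe40 stood at 0.66 and 0.67, not past an unadjusted p of 0.05, and the list median of 0.22 became 0.06 and, under the scaling by rows with no gene opposite, -0.10.

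Of the chromatin lists, that of H3.3 genes and chaperones had 1 of 9 rows higher, Atrx, the remodeller that places H3.3 at telomeres and repeats, with 11.5 to 26.6 normalised counts in GFP and 20.3 to 62.8 in H3.3 (1.01 ± 0.30). Without the 2 libraries it was at 0.57 and not past that p. Hira, Daxx and Asf1b were below the filter, and Ubn1, Cabin1 and Asf1a (opposite Mcm9) lay between -0.02 and 0.56. The H3K4 methylation list had 1 of 15 rows higher, Kmt2a (opposite AC061963.1), a methyltransferase of lysine 4, at 0.62 ± 0.28. The list of canonical and variant histones had 0 of 8 (median 0.05). Over all rows 8.45% were higher, and the counts of 1 of 9 and 1 of 15 are near that share. In the histamine list 3 rows were tested. Hrh3 (opposite Gm17180), the receptor by which histamine neurons restrain themselves, was higher by 0.90 ± 0.36 (4.75 to 28.9 in GFP, 15.3 to 36.7 in H3.3), and Slc18a2 (opposite Gm29261), the vesicular monoamine transporter, differed by -0.45 ± 0.33. Without the 2 libraries the chromatin lists had 0 rows higher and 1 lower, a histone row, and the histamine list had 0. Of all rows 1.71% were then higher and 2.23% lower.

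Among hypothalamic peptides Sst, somatostatin, had 17.3, 13.1, 6.37, 22.6 and 6.01 normalised counts in GFP and 15.0 to 32.5 with a median of 27 in H3.3 (0.87 ± 0.32). It was as large without cohort 1 libraries 2 and 3, at 0.91, and still past an unadjusted p of 0.05. The row of Pmch, melanin-concentrating hormone, was higher by 1.08 ± 0.52 and at 0.01 without them. Under the strand setting given above, reads of Pmch would mostly fall in the row opposite. The row opposite Pmch, Parpbp, held 1182 normalised counts in the first GFP library and 21818 to 36147 in the other 4, against 8854 to 35502 in H3.3 (-0.10 ± 0.47).

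The list of MHC and immunoglobulin genes had 2 of 7 rows lower and 0 higher, with a median of -0.69, beside 4.92% of all rows lower. H2-K1, a class I heavy chain, had 15.9, 36.8, 31.8, 42.3 and 22.8 normalised counts in GFP and 4.62 to 30.1 with a median of 15.6 in H3.3 (-0.86 ± 0.34, edgeR adjusted p = 0.338), and H2-D1, another, differed by -0.77 ± 0.35. Here the difference was larger without the 2 libraries, at -1.28 and -0.96, B2m and Igkc joined them at -1.07 and -2.04, and the list counted 4 of 7 lower with a median of -1.21, beside 2.23% of all rows. With all 11 libraries neither stayed past an unadjusted p of 0.05 each time 1 library was left out. Igkc, an antibody light chain, was at 2.89 to 101 in GFP and at 0 to 116 in H3.3, and the summed list ran from 92.4 to 588 and from 48.8 to 412.

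Microglia markers had 1 of 7 rows lower, C1qc, a chain of complement C1q, with 30.0 to 62.0 normalised counts in GFP and 16.3 to 37.7 in H3.3 (-0.66 ± 0.26). Over all rows 4.92% were lower. On leaving out the 2 H3.3 libraries C1qc and C1qa were lower, at -0.89 and -0.72, beside 2.23% of all rows. With the share as covariate 4 of 7 were lower, beside 1.83% of all rows. The summed list was 483 ± 99.0 in GFP, highest in the first library, and 406 ± 63.5 in H3.3 (SD), and 7 of the 14 markers, among them Tmem119 and P2ry12, were below the filter. Nefm, the row of the medium neurofilament, which lies opposite Nefl, had 7114 to 12720 normalised counts in GFP and 5246 to 7380 in H3.3 (-0.57 ± 0.18, and -0.52 without the 2 libraries), while the Nefl row was at 0.04 ± 0.24 and at -0.33 without them.

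**Figure D4:**
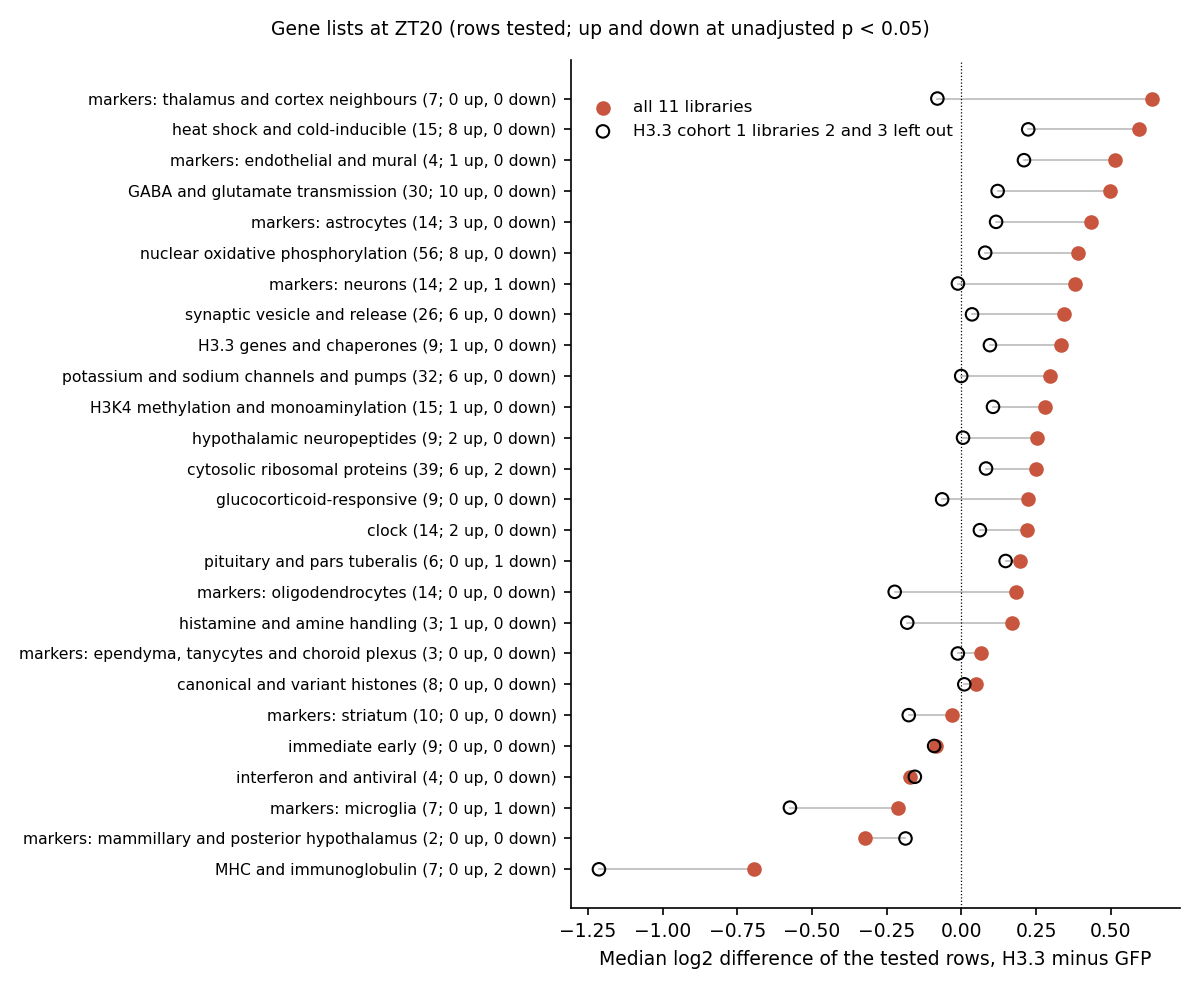
Median log2 difference of the tested rows of each gene list (x axis), with the number of rows tested and the numbers higher and lower at an unadjusted p under 0.05 in the label; filled points, all 11 libraries; open points, H3.3 cohort 1 libraries 2 and 3 left out. The heat shock list goes from 0.59 to 0.22 and the GABA and glutamate list from 0.50 to 0.12, whereas the MHC and immunoglobulin list goes from -0.69 to -1.21.

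The remaining lists had few or no such rows. Immediate early genes (9 tested, median -0.09), glucocorticoid-responsive genes (9, 0.22) and interferon genes (4, -0.17) had 0 in either direction, as had the markers of oligodendrocytes (14, 0.18), of striatum (10, -0.03), of ependyma and choroid plexus (3, 0.06), of the mammillary region (2, -0.32) and of thalamus and cortex (7, 0.64). The last summed to 525 normalised counts in the first GFP library and 68.9 to 189.9 in the others, and their median went to -0.08 without the 2 H3.3 libraries. Neuron markers had 2 higher and 1 lower of 14 (0.38), endothelial and mural markers 1 higher of 4 (0.51) and the pituitary list 1 lower of 6 (0.20), Tshb, at 68.5 to 173 in GFP and 58.2 to 82.6 in H3.3. These counts stand beside 8.45% higher and 4.92% lower of all rows. Under the scaling by rows with no gene opposite the medians of the glucocorticoid, oligodendrocyte, ependyma, pituitary, histone and histamine lists were below 0. The mitochondrially encoded and red blood cell lists had no row past the filter.

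The rows on the other strand from listed genes were looked at as well. Over 79 tested rows opposite a listed gene the median log2 difference was -0.16, with 1 higher and 4 lower at an unadjusted p under 0.05, the latter near the 4.92% of all rows. Among the 17 of these rows with a mean of at least 500 normalised counts 0 lay above 0, with a median of -0.33, and without the 2 libraries 3 did, with a median of -0.18. Glul, glutamine synthetase of astrocytes, had 144 to 249 normalised counts in GFP and 171 to 415 in H3.3 (0.58 ± 0.24, and 0.18 without the 2 libraries), while Teddm2 on the other strand had 4207 to 6510 and 3219 to 5189 (-0.25 ± 0.18, and -0.11). Syt4 was at 1.06 and its far more abundant opposite row Gm26658 at -0.06 ± 0.19, and at 0.09 without those libraries (means of 2575 in GFP and 2476 in H3.3). Under the strand setting given above, reads of Glul and Syt4 would mostly fall in the rows of Teddm2 and Gm26658, which was not tested by a recount. The direction of a listed gene thus holds for its own row only and is not a measure of its transcript.

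The same viruses were compared at the 5 other times, with their own GFP and H3.3 libraries, in 1 fit over the 71 control libraries. The difference of ZT20 from the mean of the other times was past an adjusted p of 0.05 in 0 of 13264 rows (edgeR; 0% called, and 0 by DESeq2) and past an unadjusted p of 0.05 in 2099 (15.8%). The smallest adjusted p was 0.0910, which Ktn1 shared. That count was not stable, at 1371 of 12011 rows in cohort 1 alone and 84 of 34145 with no filter on low counts. Across the 9323 rows tested at ZT20 the log2 differences had a Pearson r of 0.10 with those at ZT0, 0.22 at ZT4, 0.36 at ZT8 and 0.05 at ZT16, but of -0.69 with those at ZT12. The points are rows of shared libraries, estimated in that 1 fit, and are not independent.

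ZT12 was thus the time with the opposite pattern. There 37 of the 788 rows higher at ZT20 (4.70%) had the same sign, as had 27 of the 459 lower rows (5.88%), and the medians over all 788 and all 459 were -0.60 and 0.50. Hsp90ab1 was at -0.47 ± 0.17 and Slc1a3 at -1.18 ± 0.31, whereas Nefm was at 1.08 ± 0.35. The library measure reversed as well. Rows with no gene opposite took 16.7% ± 5.40 of gene-row reads in GFP and 10.6% ± 1.11 in H3.3 at ZT12 (SD, n = 6 and 7), against 11.9% ± 2.53 and 15.9% ± 4.96 at ZT20 (SD, n = 5 and 6), and the 3 row classes had medians of -0.34 (no gene opposite), 0.20 (gene opposite) and 0.39 (unmatched). The part of that share in the differences between the viruses was not tested beyond the covariate and the left-out libraries above.

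**Figure D5:**
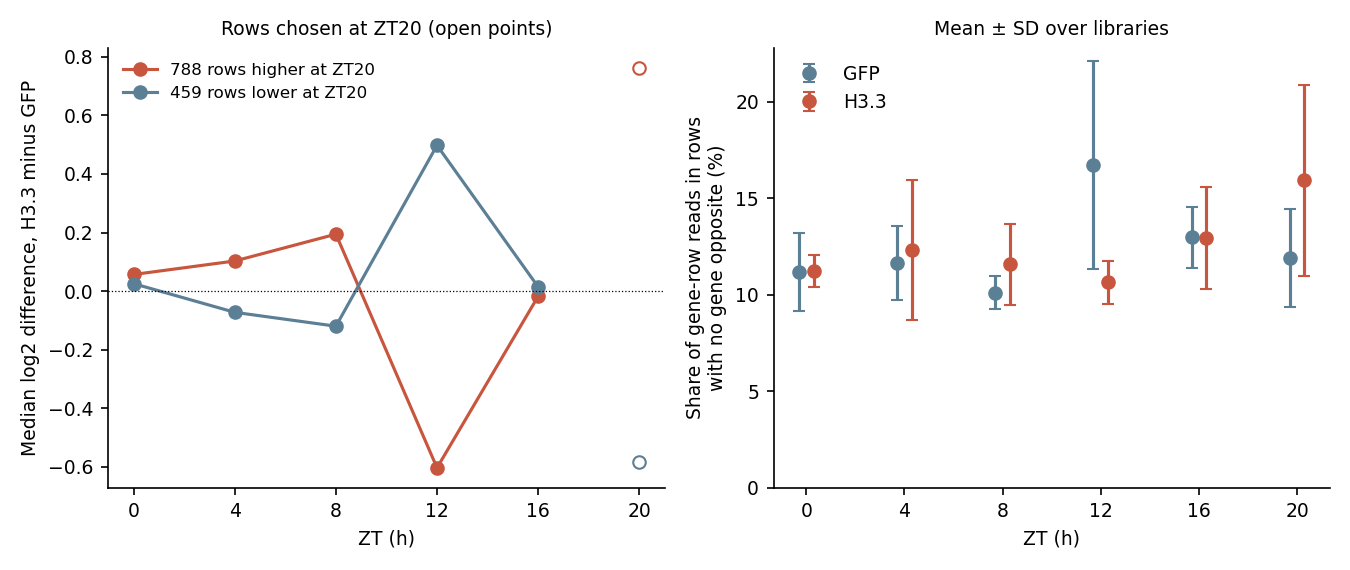
Left, median log2 difference between H3.3 and GFP (y axis) at each ZT (x axis, h) of the 788 rows higher and the 459 rows lower at ZT20; the open points at ZT20 are the values that chose the rows. Right, share of gene-row reads in rows with no gene opposite (y axis, %; mean ± SD over libraries). At ZT12 both the rows (-0.60 and 0.50) and the share (16.7% in GFP, 10.6% in H3.3) are turned round.

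Single rows differed in this. Bc1 stood at 1.55 ± 0.51 at ZT4, 1.59 ± 0.47 at ZT8 and 1.00 ± 0.45 at ZT16, at 0.93 ± 0.56 at ZT0, and on the other side at ZT12, with -0.45 ± 0.45. Its mean over the 5 other times was 0.92. RP23-386A17.6 was at 1.35 ± 0.53 at ZT0, -0.87 ± 0.47 at ZT4 and 0.43 ± 0.44 at ZT12, and Kcna6, lower at ZT20, was at 1.03 ± 0.68 at ZT8 and 1.42 ± 0.67 at ZT12. H2-K1 was at -1.39 ± 0.60 at ZT4 and -1.03 ± 0.54 at ZT12, and at 0.11 to 0.62 at the other times. Sst was at 0.33 to 1.06 at the 4 times other than ZT12 and at -0.16 ± 0.43 at ZT12. Of the 12 higher and 12 lower rows of smallest p at ZT20, 11 and 10 had the opposite sign at ZT12.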

How the data were processed

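RNA was sequenced from TMN tissue with the Illumina Stranded mRNA Prep. The authors aligned reads with STAR 2.7.11b to GRCm38 and deposited raw read counts per gene, made by htseq-count 2.0.5 with stranded=yes, minimum quality 10 and Ensembl 93. Their comparison used DESeq2 1.44.0. For the 11 ZT20 libraries, counts were filtered (edgeR filterByExpr, minimum count 10, total 15), scaled by TMM and tested with edgeR 4.0.16 (quasi-likelihood, H3.3 against GFP, no covariate, R 4.3.3), beside DESeq2 1.42.0. Rows were matched by name to GENCODE vM21 and classed by exon overlap on the other strand (bedtools 2.31.1); sequences are from its transcripts. Named rows were the 12 of smallest p and the 5 of largest difference (unadjusted p under 0.01, mean of at least 20 normalised counts) in each direction, any row at an adjusted p under 0.05 in either tool, H3f3a, H3f3b, and up to 4 rows per list by p; any further list member is named only to give a range. The members and lists were chosen with earlier results of these data known, and 6 alternatives were added after seeing them. No-feature and ambiguous reads were left out of library sizes. The steps were tested on simulated data. No library repeated another (lowest chi-square per row 2.73 over 25 pairs). P-values measure the spread between animals, which without a cohort term includes any difference between the cohorts. 18 files matched no sample and were not used.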

Additional observations from a re-analysis of the deposited data

Results flagged for a closer look

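Of 64 groups checked with Dixon's ratio, the gap from the highest or lowest library to its nearest neighbour over the range of the group, 8 were past the critical value (12.5%, where chance flags about 1 in 20). The 10 highest rows held 15.2% of the reads in GFP library 5, with a ratio of 0.759. Zfr stood at 45.3 normalised counts in GFP library 4 (0.738) and Snx32 at 10.6 in GFP library 3 (0.744), in both cases above the rest of GFP. RP23-25M3.6 was at 126 in the first cohort 2 library of H3.3 (0.66). A further clone-named row, among the 12 lower rows of smallest p, was high in GFP library 2, at 529 normalised counts (0.788), and in the first cohort 2 library of H3.3, at 159 (0.807). RP23-81C12.3 was at 788 in H3.3 cohort 1 library 3 (0.625). Pla2g3 was at 183 in GFP library 1 (0.845). The causes were not tested.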

How the results depend on the processing

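Rows past an adjusted p of 0.01 and 0.05 numbered 0 and 0 as reported, 1 and 7 with DESeq2, 44 and 89 with no filter on low counts, and 0 past 0.01 in the other fits over the whole groups, where cohort 1 alone gave 2 past 0.05 and the cohort as a covariate and the robust fit 1 each. The rows higher and lower at an unadjusted p under 0.05, 788 and 459, became 1692 and 1140 with no filter, 508 and 237 at a mean of at least 30 reads, 1503 and 1031 in cohort 1 alone, and 1550 and 1072 with the cohort as a covariate. DESeq2 gave 818 lower and the fit over all groups 802 lower. Leaving out 1 library at a time gave 0 to 2 rows past 0.05, 359 to 1366 higher and 263 to 680 lower; the lowest counts came without H3.3 cohort 1 library 3 (359 and 263) or library 2 (375 and 274), the highest without the first cohort 2 library of H3.3, and 506 were higher without GFP library 2. Chosen after seeing the data were the following. Without both H3.3 libraries there were 150 higher and 196 lower, without these and GFP library 1 175 and 221, and with the gene-row share as covariate 140 and 171. Scaling by rows with a gene opposite gave 280 lower, and scaling by rows without one 198 higher and 823 lower. H3f3b turned to -0.17 without those 3 libraries and to -0.10 with the share. No other row named by the smallest-p, size, DESeq2 or H3.3-gene parts of the rule turned. Among list members and opposite rows Nefl, Clock, Cry2 and Gm26658 turned without the 2 H3.3 libraries. The replicate numbers of cohort 1 did not pair the samples: same-number correlations ran from -0.44 to 0.32 over 4 pairs, and 1 of 4 H3.3 libraries correlated best with its own number. The fit with the replicate block gave 20 rows past 0.01, 66 past 0.05 and 1209 higher, and the same 8 libraries without the block 1, 4 and 1305. The difference in the share of the 10 highest rows, -0.03 percentage points, ran from -0.50 to 0.46 on leaving out single libraries. For ZT20 against the other times, no filter gave 35 rows past 0.01 and 84 past 0.05, and cohort 1 alone 1371 past 0.05 and 4037 at an unadjusted p under 0.05. The cause was not tested. Gene-row depth, 979664 to 1807214 reads, leaves many listed genes near the filter, which limits what their rows can show.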

Other observations

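Rows below the filter on low counts are given here as values only. How many of the rows below the filter separate the groups without overlap was not counted. Wdr5, whose protein reads and helps write lysine 4 methylation on H3, had 1 to 4 reads in the 5 GFP libraries and 5 to 13 in the 6 H3.3 libraries. In normalised counts these were 1.19 to 3.94 against 5.27 to 8.68, with no overlap. Wdr5 was singled out after its values were seen. Without the number of other such rows its separation cannot be judged. Oxt, oxytocin, had 0 normalised counts in 4 GFP libraries and 2.95 in the other, against 1.16 to 51.5 in H3.3. Avp, vasopressin, had 0 to 5.31 in GFP and 0 to 17.6 in H3.3.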
